A study of Homo sapiens with 18 samples.

Results

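ChIP-seq peaks of H3K27ac and CTCF were described at 9 genes of MHC class I antigen presentation and its regulation: HLA-B, HLA-C, HLA-E, HLA-F, HLA-G, B2M, TAP1, NLRC5 and CIITA. The genes were chosen by name from 19111 protein-coding genes on chromosomes 1 to 22. A peak was assigned to a gene when it shared at least 1 bp with the gene body in GENCODE release 44 (hg38) or with the 10 kb on either side, which is called the window of the gene below. Peaks of the 6 libraries of an antibody that shared at least 1 bp were merged into regions. The windows held 23 of 55382 H3K27ac regions and 26 of 69985 CTCF regions.

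The cells were HEK293T, an established line of transformed human embryonic kidney cells. Untreated cells (CTRL) were compared with cells that were treated for 1 day with valproic acid (VPA) at 1 mM, which inhibits histone deacetylases. Each treatment had 3 libraries for H3K27ac and 3 for CTCF. All groups came from the same single line, and the labels do not say whether the 3 replicates were separate cultures, so p-values measure the spread between these libraries, which may be technical. The 6 input libraries of the series were not analysed here.

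Class I molecules consist of a heavy chain, encoded by the HLA genes, and the light chain B2M, and they display peptides from inside the cell to T cells. TAP1 is a subunit of the transporter that carries these peptides into the endoplasmic reticulum. NLRC5 and CIITA are large regulators without DNA-binding domains of their own, which act through factors already bound to the promoters, NLRC5 mainly at class I genes and CIITA mainly at class II genes. H3K27ac, an acetylated lysine of histone H3, marks active promoters and enhancers. CTCF binds DNA through its zinc fingers and holds the bases of chromatin loops.

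Of 5 markers of the labelled line, 3 had an H3K27ac peak at the promoter in every library. H3K27ac summits lay within 1 kb of the start sites of PAX2, NEFM and SALL2 in all 6 libraries, near that of NEFL in 5, and near that of LIN28B in none. None of the T-cell markers CD3E and CD2 and the hepatocyte markers ALB and APOA2 had such a peak in any library. The peak lists hold no read totals. The background coverage recovered from them, a measure of relative depth, was 3.51 to 3.95 fragments in the 12 libraries, and the H3K27ac lists held 26299 to 29799 peaks in CTRL and 38441 to 40992 in VPA. Replicate 1 of both treatments stood apart. At the H3K27ac regions of the 9 windows with a peak in all 6 libraries, the median local background was 12.9 times (CTRL) and 10.8 times (VPA) the background coverage of the library in replicate 1, against 2.22 to 2.83 times in replicates 2 and 3. A high local background lowers the fold enrichment, which is the ratio of the fragments over a summit to this background. Bulk chromatin was assayed, so fewer cells with a mark and less of the mark in each cell cannot be told apart.

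The proximal promoters of class I genes carry a compact array of elements. Enhancer A binds NF-kB, the interferon response element binds interferon regulatory factors, and the X2 and CCAAT elements bind CREB/ATF factors and NF-Y, which together with RFX make up the complex that NLRC5 and CIITA use. Promoter sequences of RefSeq (GRCh38.p14) were matched for 6 of the 9 genes, and the 200 bases before the start site are shown. The merged H3K27ac regions described below cover these bases, except at HLA-G, where the region begins downstream of the start site. Capitals mark 4 searched motifs on either strand: the NF-kB site (GGG, any 2 bases, T, any 2 bases, CC), the interferon response element core (TTTC, any 2 bases, TTTC), the X2 core (TGACG) and the CCAAT box. Adjacent or overlapping matches form 1 run of capitals.
HLA-B: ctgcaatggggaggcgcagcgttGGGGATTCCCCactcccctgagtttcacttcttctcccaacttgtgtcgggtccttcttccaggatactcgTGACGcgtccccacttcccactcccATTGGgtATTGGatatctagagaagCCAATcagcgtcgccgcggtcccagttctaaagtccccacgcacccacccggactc
HLA-C: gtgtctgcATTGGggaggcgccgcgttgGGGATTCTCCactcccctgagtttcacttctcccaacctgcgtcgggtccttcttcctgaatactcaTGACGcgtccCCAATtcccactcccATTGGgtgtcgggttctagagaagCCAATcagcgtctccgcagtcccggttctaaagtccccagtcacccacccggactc
HLA-F: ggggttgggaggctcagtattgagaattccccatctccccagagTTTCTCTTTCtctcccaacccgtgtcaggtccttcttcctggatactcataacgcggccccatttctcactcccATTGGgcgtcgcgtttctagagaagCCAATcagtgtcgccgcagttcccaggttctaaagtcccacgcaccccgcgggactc
HLA-G: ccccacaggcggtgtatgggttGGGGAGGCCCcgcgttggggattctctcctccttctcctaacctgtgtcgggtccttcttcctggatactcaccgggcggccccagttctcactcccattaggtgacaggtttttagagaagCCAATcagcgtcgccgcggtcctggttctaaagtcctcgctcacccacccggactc
B2M: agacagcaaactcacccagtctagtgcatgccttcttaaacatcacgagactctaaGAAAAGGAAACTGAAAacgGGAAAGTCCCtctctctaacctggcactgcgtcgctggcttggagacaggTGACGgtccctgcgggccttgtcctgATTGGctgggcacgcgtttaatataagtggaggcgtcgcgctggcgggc
TAP1: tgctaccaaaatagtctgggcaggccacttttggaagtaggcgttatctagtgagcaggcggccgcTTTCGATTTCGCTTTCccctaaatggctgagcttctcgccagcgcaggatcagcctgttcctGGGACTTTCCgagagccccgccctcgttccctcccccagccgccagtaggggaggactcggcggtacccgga
These stretches lie at chr6:31357180-31357379 (HLA-B, minus strand), chr6:31272093-31272292 (HLA-C, minus strand), chr6:29723234-29723433 (HLA-F, plus strand), chr6:29827625-29827824 (HLA-G, plus strand), chr15:44711317-44711516 (B2M, plus strand) and chr6:32853705-32853904 (TAP1, minus strand).

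The NF-kB letters were found in 5 of the 6 promoters, compared with 16.4% of 33725 promoter stretches of the same length. The CCAAT letters were in 5 of 6, compared with 27.8%, and TGACG in 3 of 6, compared with 18.2%. The interferon response element core, found in 2.39% of promoters, was in 3 of 6. HLA-B and HLA-C held the NF-kB, X2 core and CCAAT letters. HLA-F held the interferon response core and CCAAT letters, and HLA-G held 1 CCAAT match and 1 NF-kB match. B2M held all 4. A match describes these letters only, and no match says nothing about the factor.

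H3K27ac peaks lay at or near the start sites of most of these genes before and after VPA treatment. In all 6 libraries a summit lay within 1 kb of the start site of HLA-B, HLA-C, HLA-E, HLA-F, B2M and TAP1. The HLA-G promoter had a peak in 4 libraries, namely replicates 2 and 3 of each treatment. The NLRC5 promoter had one in 2 libraries, CTRL replicate 2 and VPA replicate 3, and the CIITA start site had none in any library. At these 6 promoters the median summit lay downstream of the start site, by 17 bp at TAP1 and by 199 to 295 bp at the others.

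**Figure D1:**
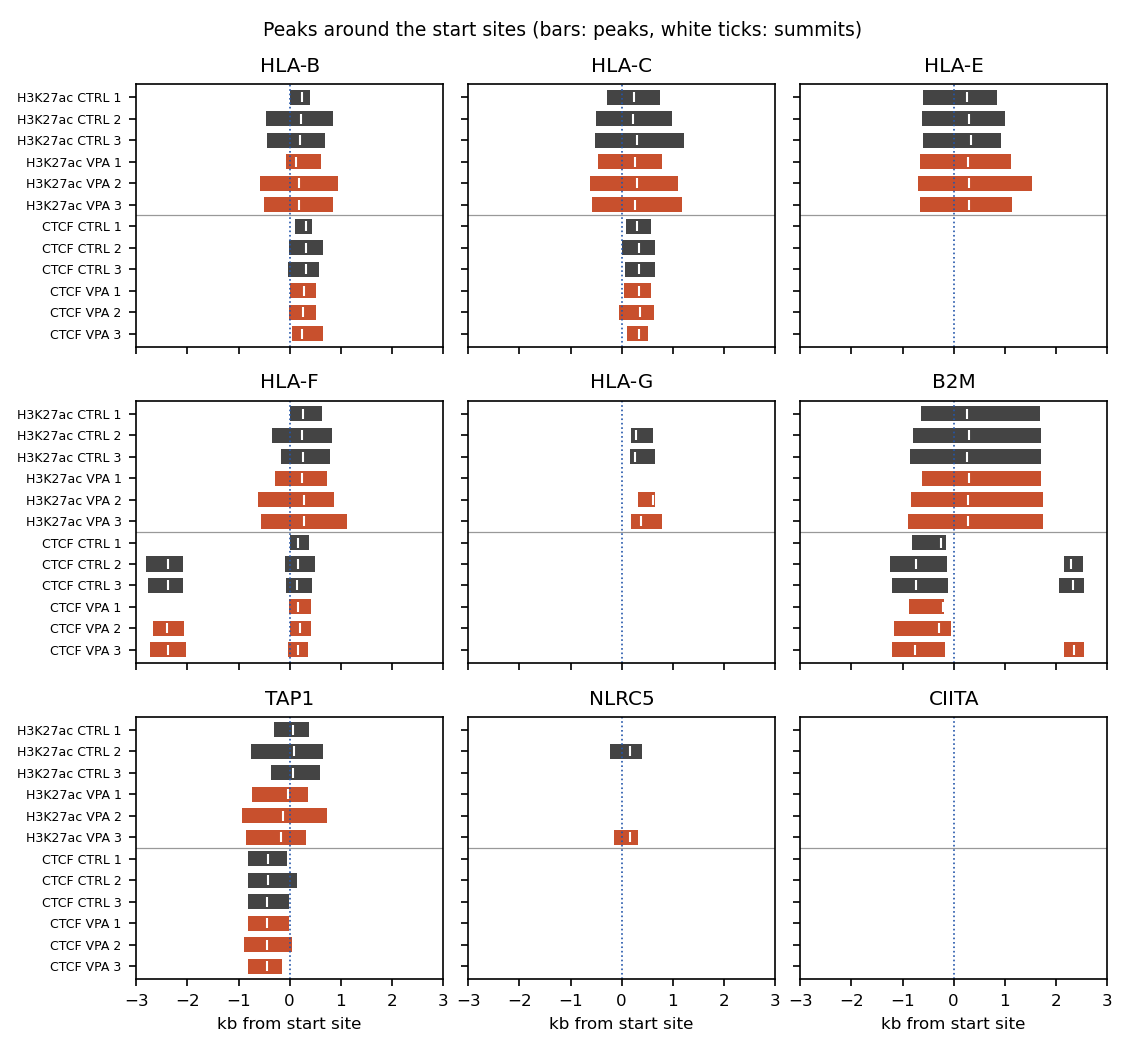
Extents of H3K27ac and CTCF peaks within 3 kb of the 9 start sites, with distance in the direction of transcription on the x axis (kb) and the 12 libraries on the y axis (dark CTRL, orange VPA). Bars are peaks and white ticks are summits. H3K27ac peaks lie at or near the starts of 6 genes in all 6 libraries, HLA-G and NLRC5 have peaks in 4 and 2 of 6 libraries, and CIITA has none.

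Over the 9 windows together, the mean H3K27ac peak number and covered length were slightly higher in VPA libraries, while the ranges of the treatments overlapped. The numbers of distinct peaks were 14, 16 and 14 in CTRL and 15, 17 and 17 in VPA, or 14.7 ± 1.15 against 16.3 ± 1.15 (SD, n = 3). The covered length was 14.1, 21.7 and 19.5 kb in CTRL and 18.7, 25.8 and 24.2 kb in VPA, or 18.4 ± 3.91 against 22.9 ± 3.74 kb (SD, n = 3). In both measures each VPA library lay above the CTRL library of its own number, and the same held for the whole lists. Numbers 2 and 3 could not be told apart as pairs, as described below. The difference of 1.67 peaks did not keep its direction, and became −1.67 with equal list lengths and 0 with 5 kb windows. The ratio of VPA to CTRL was 1.24 for covered length at these genes, and 1.40 over the whole lists.

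By gene, the covered length was higher in all 3 VPA libraries than in any CTRL library at 2 of the 9 genes, HLA-E and CIITA, and lower at none. Of 16041 protein-coding gene windows with a peak, 31.6% were higher in this sense and 0.187% lower, so the share at the 9 genes was not above that of all genes. For single genes an exact permutation test (two-sided, 3 against 3 libraries) cannot go below 0.1, the value for both genes. The H3K27ac libraries of replicate 1 deviated together, while numbers 2 and 3 could not be told apart as pairs. Each VPA library was then compared with the CTRL library of its own number. In all 3 such pairs 6 of the 9 genes were higher (HLA-B, HLA-E, HLA-F, B2M, TAP1 and CIITA) and none lower. Over all gene windows 73.7% were higher and 1.17% lower. The median log2 ratio of covered length plus 100 bp was 0.29 over the 9 genes and 0.37 over all gene windows. The number of peaks did not separate the treatments at any of the 9 genes, against 12.2% of gene windows higher in VPA and 0.175% lower.

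**Figure D2:**
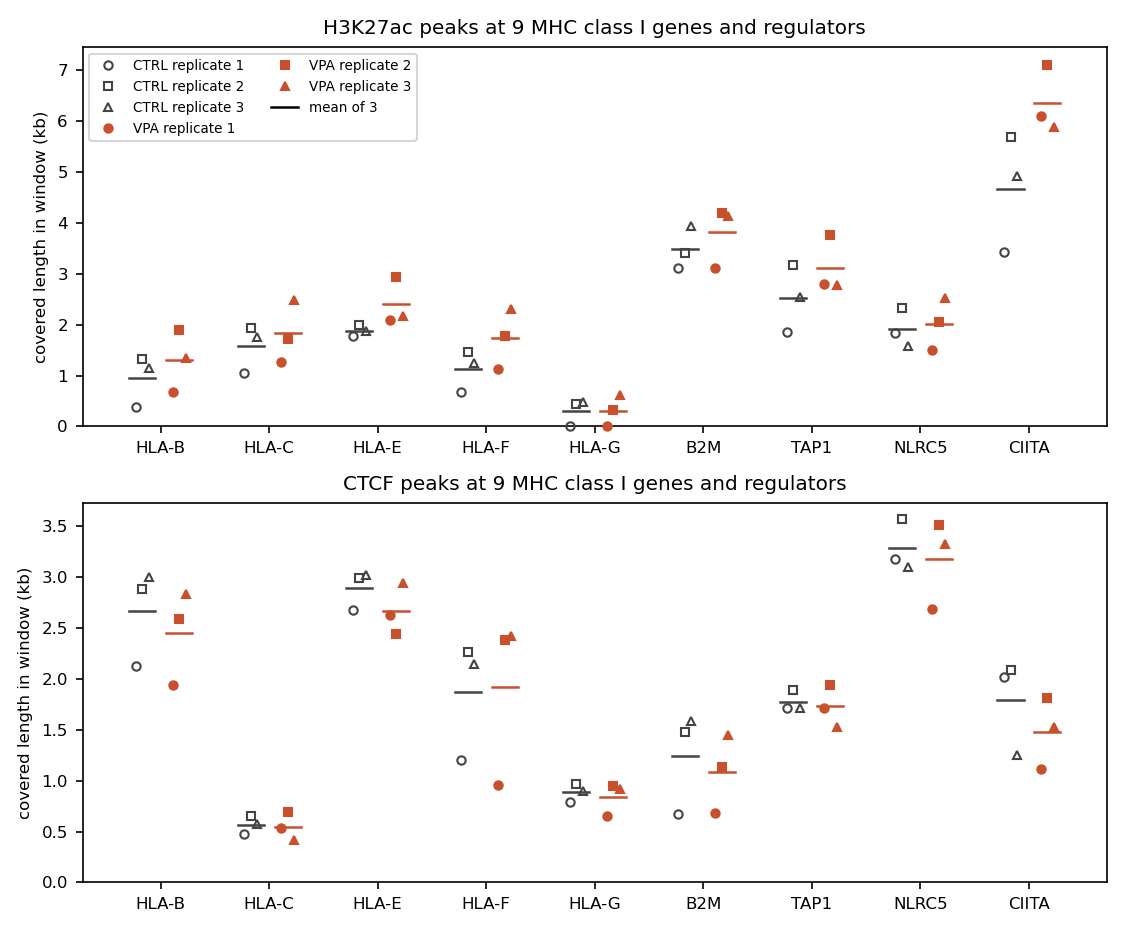
Covered length of H3K27ac (top) and CTCF (bottom) peaks in the window of each gene, in kb, with 1 point per library and a line at the mean of 3 libraries. For H3K27ac the VPA libraries lie above all CTRL libraries at HLA-E and CIITA, and for CTCF the treatments overlap at all 9 genes.

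Among the classical heavy chains, which present peptides to cytotoxic T cells, the HLA-B window was covered by 390, 1322 and 1139 bp of H3K27ac peaks in CTRL and 679, 1901 and 1353 bp in VPA. It had 1 peak per library except 2 in VPA replicate 2, and replicate 1 was lowest in both treatments. The promoter region (chr6:31356233-31357756) had fold enrichments of 2.29, 11.6 and 11.5 in CTRL and 4.08, 9.16 and 15.5 in VPA. The HLA-C window was covered by 1043, 1929 and 1747 bp in CTRL and 1268, 1725 and 2486 bp in VPA, with 1, 2 and 1 peaks and 1, 1 and 2 peaks. At the HLA-C promoter (chr6:31270870-31272704) the fold enrichments were 6.37, 28.5 and 29.1 in CTRL and 6.80, 30.8 and 16.8 in VPA. The treatments overlapped in covered length and fold at both genes.

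HLA-E presents leader peptides of other class I molecules to NK cell receptors. Its window was covered by 1783, 1983 and 1880 bp in CTRL and by 2095, 2938 and 2161 bp in VPA, with 2 peaks per library except 3 in VPA replicate 2. All VPA libraries lay above all CTRL libraries, by a ratio of means of 1.27. The promoter region (chr6:30488818-30491046) held most of this length, 1441 to 1625 bp in CTRL and 1782 to 2229 bp in VPA, and its edges moved outward on both sides of the start site in the plot of peaks. A second, narrow region (chr6:30485928-30486291) lay 3434 bp upstream of the start site and had a peak of 313 to 364 bp in all 6 libraries.

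HLA-F is a non-classical heavy chain that is also found at the cell surface without peptide. Its window was covered by 674, 1461 and 1242 bp in CTRL and 1133, 1781 and 2312 bp in VPA, with 2 peaks in every library, and the treatments overlapped. At its promoter region (chr6:29722824-29724553) peaks were 626, 1181 and 953 bp wide in CTRL and 1020, 1476 and 1675 bp in VPA. Fold enrichments there were 3.42, 12.2 and 9.53 in CTRL and 6.02, 17.6 and 12.8 in VPA, higher in VPA within each replicate number but overlapping between treatments. The second peak (chr6:29747892-29749632) lay 25427 bp downstream of the start site and reached past the window.

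HLA-G, which is expressed mainly in placental trophoblast, had the weakest acetylation of the heavy chains. Its window was covered by 0, 431 and 479 bp in CTRL and 0, 326 and 608 bp in VPA. All of it lay in 1 region (chr6:29827996-29828619) that begins just downstream of the start site. The summits held 29 and 29 fragments in CTRL replicates 2 and 3 and 23 and 31 in VPA replicates 2 and 3, where the smallest pileup called in the H3K27ac lists was 11. Replicate 1 of either treatment had no peak there, so the level in these libraries is known only to lie below the calling threshold.

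The light chain gene B2M, on chromosome 15, had a broad peak over its start site (chr15:44710623-44713271) that was 2335 to 2551 bp wide in CTRL and 2317 to 2643 bp in VPA. This region, called the B2M promoter below, also holds the start site of PATL2 on the opposite strand (chr15:44711323). The fold enrichments were 15.4, 62.9 and 31.8 in CTRL and 11.8, 38.2 and 26.8 in VPA, lower in VPA within each replicate number and overlapping between treatments. The whole B2M window was covered by 3108, 3412 and 3945 bp in CTRL and 3114, 4192 and 4126 bp in VPA, with 2, 2 and 3 peaks and 2, 3 and 3 peaks. The treatments overlapped in covered length.

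TAP1 shares a bidirectional promoter with PSMB9, a subunit of the immunoproteasome. The promoter region (chr6:32852967-32854644) had fold enrichments of 3.53, 14.7 and 11.6 in CTRL and 3.73, 9.90 and 5.93 in VPA. The covered length of the TAP1 window was 1859, 3175 and 2543 bp in CTRL and 2795, 3767 and 2785 bp in VPA, with 2 peaks in each CTRL library and 3, 3 and 2 in VPA. The treatments overlapped. Part of this length (chr6:32837555-32839359) lay at the start of TAP2, the partner subunit of the transporter, with the highest mean fold enrichment of the window, 15.9.

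The windows of both regulators were acetylated mainly at the promoters of neighbouring genes. At NLRC5, covered length was 1827, 2332 and 1583 bp in CTRL and 1498, 2050 and 2515 bp in VPA, with 2, 2 and 1 peaks and 1, 1 and 3 peaks. The region with a peak in all 6 libraries (chr16:57091482-57093720) lay at the start of CPNE2, 103245 bp from the NLRC5 start. The NLRC5 promoter peaks (chr16:56989338-56989952) had 42 fragments in CTRL replicate 2 and 28 in VPA replicate 3, with fold enrichments of 3.46 and 2.95.

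At CIITA, the covered length was 3426, 5685 and 4911 bp in CTRL and 6092, 7099 and 5885 bp in VPA, with all VPA libraries above all CTRL libraries and a ratio of means of 1.36. The numbers of peaks were 2, 2 and 1 in CTRL and 3, 1 and 1 in VPA. Most of this length was a single region (chr16:10939530-10946628) over the 3′ end of CIITA, which holds the start sites of DEXI and CLEC16A and lies 64983 bp from the canonical CIITA start site. Its highest peak was 2767, 5263 and 4911 bp wide in CTRL and 5123, 7099 and 5885 bp wide in VPA. VPA replicate 1 (5123 bp) lay below CTRL replicate 2 there, so the treatments overlapped in this region. The window as a whole separated them only with 2 narrow peaks of 476 and 493 bp elsewhere in it, both called in VPA replicate 1 alone, and CIITA was not among the separated genes with 5 kb windows. No H3K27ac peak was called near the canonical start site of CIITA.

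No H3K27ac region of the 9 windows was present in all 3 libraries of one treatment and absent from all 3 of the other, against 4.12% of all regions for VPA and 0.139% for CTRL. Among the 23 regions 12 (52.2%) had a peak in all 6 libraries, compared with 33.2% of all H3K27ac regions. The sets are unlike, since 11 of the 23 lay at a promoter and all regions include those outside gene windows.

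For these 12 regions the height of the peaks was compared. On log2 fold enrichment, limma with treatment alone called none of the 12 regions and 0 of 18407 regions overall (0%), with 301 regions (1.64%) and no region of the 9 windows at an unadjusted p under 0.05. With the replicate number as a block it called 4.73% of all regions higher and 11.8% lower in VPA, and again none of the 12. The block removed the spread between replicate 1 and the others, and the standard errors of the 12 regions fell from 0.52 to 0.76 without it to 0.19 to 0.25 with it. The nearest to the threshold was the HLA-F promoter, higher in VPA by 0.59 ± 0.22 (log2 ± SE, adjusted p = 0.075, limma with the replicate block). Next were the B2M promoter at −0.45 ± 0.20 (adjusted p = 0.114) and the DEXI region of the CIITA window at −0.44 ± 0.21 (adjusted p = 0.149) in the same limma fit.

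The summit pileup divided by the background coverage of the library does not contain the local background, and replicates lay closer together on this scale. At the HLA-F promoter the summits held 142, 139 and 119 fragments in CTRL and 248, 221 and 194 in VPA. Divided by background coverage, these were 39.1, 36.7 and 33.9 in CTRL and 67.4, 55.9 and 53.0 in VPA, or 36.6 ± 2.60 against 58.8 ± 7.64 (SD, n = 3), and the treatments did not overlap. At the B2M promoter the summits held 522, 400 and 347 fragments in CTRL and 337, 264 and 263 in VPA, which gave 143.9, 105.5 and 99.0 against 91.6, 66.8 and 71.8 times the background coverage. All VPA values at B2M lay below all CTRL values, by a ratio of means of 0.661. Each value is relative to its own library, so an absolute loss of acetylation cannot be read from this ratio. Of the 12 regions, the HLA-F promoter was the only one with all VPA values above all CTRL values, beside 9.89% of all 18407 regions. The B2M promoter and the region upstream of HLA-E were the 2 with all VPA values below, beside 28.2% of all regions. The exact permutation p was 0.1 for each of the 3.

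On the log2 scale of this measure, limma with treatment alone called the HLA-F promoter higher in VPA by 0.68 ± 0.21 (SE, adjusted p = 0.0349), the only one of the 12 regions called in that fit, where 3.66% of all regions were called higher and 11.7% lower. The B2M promoter, at −0.59 ± 0.24 (SE), was not called in this limma fit (adjusted p = 0.0838). The median of all 18407 regions was shifted by −0.28, and relative to it HLA-F was higher by 0.96 and B2M lower (−0.31). Leaving out 1 library at a time kept the HLA-F difference between 0.58 and 0.75, with adjusted p from 0.0239 to 0.122 (limma). The call was lost without CTRL replicate 2 (0.0949), CTRL replicate 3 (0.101), VPA replicate 2 (0.122) or VPA replicate 3 (0.105), all adjusted p. With the replicate block it was called (adjusted p = 5.74e-05, limma), and 6 regions were called lower, where 11.1% of all regions were higher and 51.8% lower. These 6 were the B2M promoter, the region downstream of B2M, the narrow region upstream of HLA-E and the promoters of TAP2, CPNE2 and DEXI.

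Centring each library on its median with the replicate block called the HLA-F promoter also on fold enrichment (0.67 ± 0.22, adjusted p = 0.0452, limma), where 6.45% of all regions were higher and 8.57% lower. When the pileup was centred in the same way, which removes the shared shift, the block fit called 3 regions higher and 3 lower (22.8% and 33.4% of all regions). Higher were the HLA-F promoter (0.92 ± 0.09, adjusted p = 3.96e-05), the HLA-B promoter (0.37 ± 0.10, adjusted p = 0.0111) and the region downstream of HLA-F (0.34 ± 0.13, adjusted p = 0.0414), all by limma. Lower were the B2M promoter (−0.35 ± 0.07, adjusted p = 0.00191) and the DEXI and CPNE2 promoters (adjusted p = 0.0277 and 0.0145). The HLA-E promoter, by contrast, changed sign between scales, from 0.27 on fold enrichment to −0.13 on the pileup, and was not called on either.

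**Figure D3:**
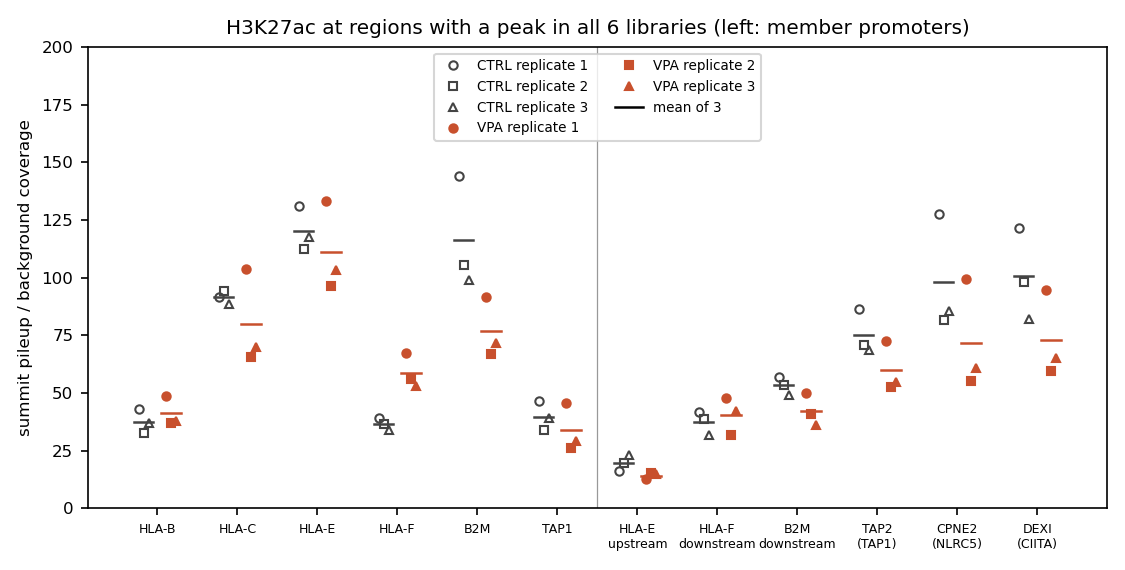
Summit pileup divided by the background coverage of the library at the 12 H3K27ac regions with a peak in all 6 libraries, with 1 point per library and a line at the mean. At the HLA-F promoter the VPA libraries (53.0 to 67.4) lie above the CTRL libraries (33.9 to 39.1), and at the B2M promoter and the region upstream of HLA-E they lie below them.

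**Figure D4:**
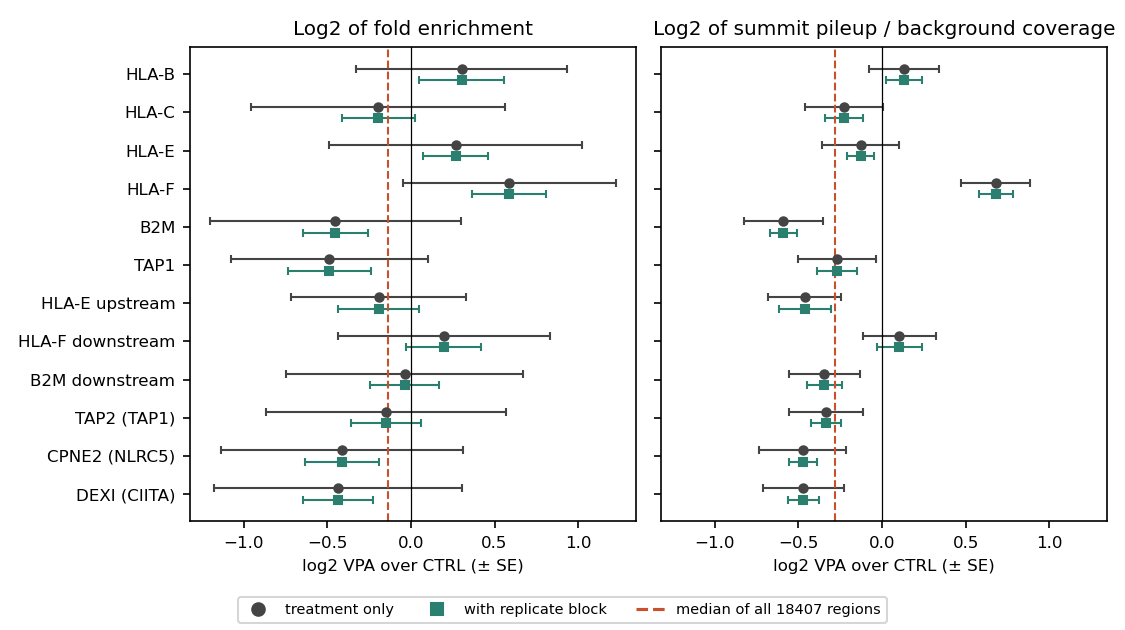
Log2 ratio of VPA to CTRL with its standard error at the same 12 regions by limma, for fold enrichment (left) and summit pileup over background coverage (right), with treatment alone (circles) or with the replicate block (squares). The dashed line is the median of all 18407 regions, −0.14 on the left and −0.28 on the right. The HLA-F promoter is the highest of the 12 on both scales.

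By pileup, in CTRL the HLA-E (120.4 ± 9.74 times background coverage), B2M (116 ± 24.3) and HLA-C (91.5 ± 2.73) promoters were the highest (SD, n = 3), and B2M overlapped HLA-E. TAP1 (39.8 ± 6.44), HLA-B (37.6 ± 5.44) and HLA-F (36.6 ± 2.60) followed and did not differ beyond their spread. In VPA HLA-E (111 ± 19.6) was again the highest by mean, followed by HLA-C (79.8 ± 21.0) and B2M (76.8 ± 13.1), which overlapped. HLA-F (58.8 ± 7.64), the lowest by mean in CTRL, came next in VPA, above HLA-B (41.2 ± 6.49) and TAP1 (33.7 ± 10.4), and the last 2 overlapped. The class I heavy chain genes are close paralogs, and how reads matching several of them were placed is not given in the sources used here, so signal split between them makes the levels of single HLA genes uncertain.

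CTCF peaks at these genes were mostly shared by libraries of both treatments. The 9 windows held 19, 22 and 21 CTCF peaks in CTRL and 18, 20 and 23 in VPA (20.7 ± 1.53 against 20.3 ± 2.52, SD, n = 3), covering 14.9, 18.8 and 17.3 kb against 12.9, 17.4 and 17.3 kb. The treatments overlapped in covered length at all 9 genes, where 1.26% of 16926 gene windows were higher and 1.86% lower in VPA, and in peak number at all 9 genes (0.396% and 0.874%). Of the 26 CTCF regions 16 (61.5%) had a peak in all 6 libraries, compared with 39.7% of all CTCF regions, and 12 (46.2%) shared bases with an H3K27ac region, compared with 28.4%. All CTCF regions likewise include those outside gene windows, so these shares do not compare like sets.

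Bases at the summits were searched for the CTCF core motif, allowing 2 mismatches over 14 positions within 100 bases of the median summit. It was found at 15 of the 26 regions (57.7%), against 56.4% of all 69985 CTCF regions and 5.39% of windows 2 kb away. Among regions with a peak in all 6 libraries it was found at 10 of 16 (62.5%), against 72.7% of 27794. The matches at the region with the highest mean fold enrichment that held one are shown for 6 genes, since these regions had a peak in every library. HLA-C, HLA-E and B2M had no match. Capitals mark the 14 positions of the motif, read 5′ to 3′ on its own strand.
HLA-B site: cgcatcgaCCACCAGGTGGCGCtgctgcgc
HLA-F site: agcagagaCCACTAGGAGGCACcactgcac
HLA-G site: cagtgtcaACACCAGGGGGCGCcacagacc
TAP1 site: ctgggccgCCGGGAGGGGGCGCgcgagacc
NLRC5 site: gctgagcaCCACTGGAGGGCAGgctagccc
CIITA site: aaggcctaCCAGAAGGTGGCAGtgaaacac
They lie in hg38 at chr6:31367058-31367087 (minus), chr6:29738215-29738244 (plus), chr6:29835002-29835031 (minus), chr6:32838827-32838856 (plus), chr16:57084409-57084438 (plus) and chr16:10918918-10918947 (minus). The HLA-B site matched the motif with 0 mismatches, the HLA-F, HLA-G, NLRC5 and CIITA sites with 1 and the TAP1 site with 2.

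The HLA-B site lay 9897 bp upstream of the canonical start site, and its fold enrichments were 94.0, 53.5 and 58.8 in CTRL and 33.5, 93.6 and 50.8 in VPA. The HLA-F site lay in an intron, 14792 bp into the gene, with 38.0, 79.3 and 43.5 in CTRL and 17.5, 94.4 and 60.0 in VPA. At the HLA-G site, 7179 bp downstream of the start and past the end of the gene, they were 292.5, 66.7 and 59.4 in CTRL and 33.4, 88.8 and 69.8 in VPA. At these 3 sites VPA replicate 1 was the lowest library. VPA replicates 2 and 3 lay above the CTRL libraries of the same number, except replicate 3 at HLA-B. The numbers do not pair the CTCF libraries.

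The TAP1 site, at the TAP2 promoter, had fold enrichments of 54.4, 80.6 and 82.2 in CTRL and 81.9, 132.7 and 78.8 in VPA. Another region at the shared TAP1 and PSMB9 promoter (chr6:32853567-32854596) had 20.9, 35.7 and 23.1 in CTRL and 29.0, 41.1 and 18.9 in VPA. The NLRC5 site, just past the 3′ end of the gene, had 134.1, 86.1 and 60.2 in CTRL and 33.5, 73.0 and 86.8 in VPA. The CIITA site lay in an intron 41741 bp from the start and had 34.6, 82.6 and 89.1 in CTRL and 15.7, 112.1 and 67.6 in VPA. The treatments overlapped at each of these sites.

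Upstream of HLA-E a region (chr6:30480660-30482702) with fold enrichments of 75.0, 108 and 86.7 in CTRL and 69.2, 149 and 66.9 in VPA had no motif match near its median summit. Weak CTCF peaks lay just inside the start sites of HLA-B (2.36 to 7.31-fold over the 6 libraries), HLA-C (3.82 to 9.37-fold) and HLA-F (2.98 to 5.47-fold). They shared bases with the H3K27ac promoter peaks and had no motif match. HLA-E and HLA-G had no such CTCF peak.

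Next to B2M, a CTCF region at the PATL2 start (chr15:44710268-44711471) had fold enrichments of 3.91, 29.0 and 33.5 in CTRL and 1.86, 5.42 and 26.5 in VPA. Its log2 difference was −1.28 ± 1.10 with treatment alone (adjusted p = 1.00, limma). Within each replicate number VPA was lower, but the numbers do not pair the CTCF libraries and the treatments overlapped. The summit pileups were 60, 161 and 159 in CTRL and 37, 39 and 127 in VPA. CTRL replicate 1 and VPA replicates 1 and 2 were low.

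By limma on log2 fold enrichment, none of the 16 CTCF regions with a peak in all 6 libraries was called, nor any of 27794 regions overall (0%), with 254 regions at an unadjusted p under 0.05, none of them in the 9 windows. The median log2 difference was −0.14 over the 16 regions and −0.02 over all. On the pileup scale 0 of the 16 regions had treatments that did not overlap, against 0.288% higher and 1.85% lower overall. VPA replicate 1 was at an extreme at most CTCF regions on that scale. It was the highest of 6 at 6 of the 7 regions at promoters, and the lowest of 6 at 7 of the 9 regions elsewhere. At the same 6 promoter regions CTRL replicate 1 was the next highest, so replicate 1 of both treatments ran high there. The HLA-C promoter had 59.6 (CTRL) and 69.2 (VPA) in replicate 1, against 20.6 to 29.0 in replicates 2 and 3. Away from promoters CTRL replicate 1 ranged from the highest library (HLA-G site) to the lowest but VPA replicate 1 (CIITA site).

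**Figure D5:**
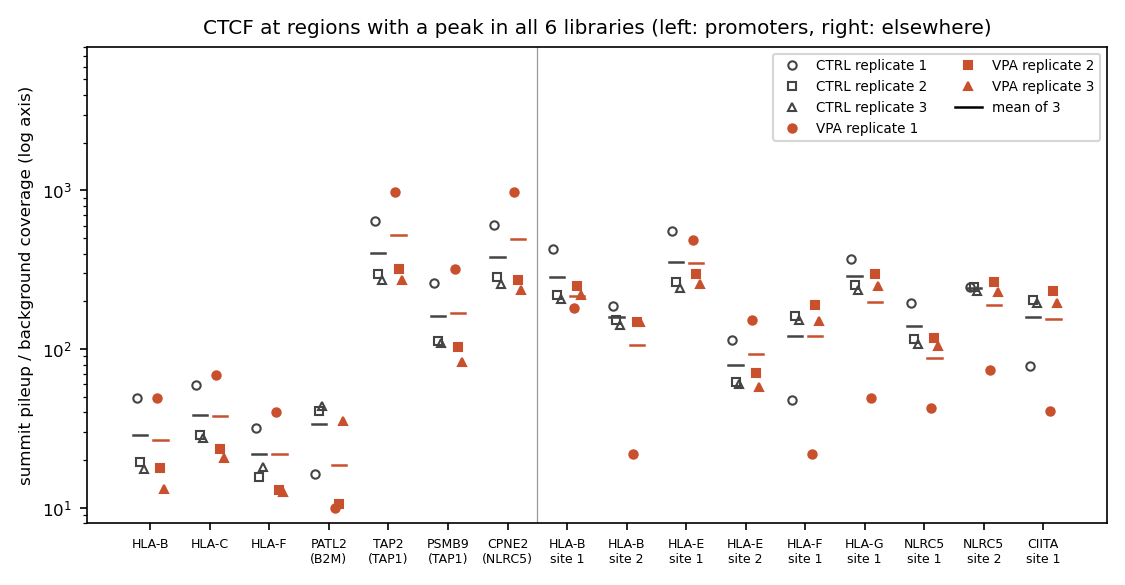
Summit pileup over background coverage (log axis) at the 16 CTCF regions with a peak in all 6 libraries, promoters on the left and other sites on the right, with 1 point per library and a line at the mean. VPA replicate 1 is the highest library at 6 of 7 promoter regions and the lowest at 7 of 9 other regions.

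A single CTCF region was present in one treatment only. It lay in the CIITA window, 3′ of the gene, with fold enrichments of 11.4, 5.45 and 4.11 and summit pileups of 55, 39 and 37 fragments in CTRL, and no peak in VPA. This held for 0.326% of all CTCF regions, and the opposite pattern for 0.186%. With equal list lengths or with 5 kb windows no CTCF region of the 9 windows was present in one treatment only.

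The wider pathway was described by 4 lists, with covered length of H3K27ac as the measure and the treatments not overlapping as the call (31.6% of gene windows higher). Of 13 genes of antigen processing 2 were higher in VPA and none lower. These were PDIA3, a chaperone of the loading complex, covered by 5195, 5499 and 6667 bp in CTRL and 7018, 9727 and 9412 bp in VPA, and TAPBPL, a peptide editor, by 2465, 3267 and 2986 bp and 3672, 3811 and 3815 bp. Of 7 class I-like genes, MICA (5383, 6656 and 7044 bp against 7382, 8599 and 8559 bp) and MR1 (1524, 2762 and 2539 bp against 3052, 2947 and 2964 bp) were higher. Both lists held no gene that was lower.

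Of 13 genes for factors that bind class I promoters, 7 were higher in VPA and none lower. All 3 subunits of RFX were among them. RFX5 was covered by 2628, 2234 and 2325 bp in CTRL and 3382, 3360 and 3252 bp in VPA, RFXANK by 4038, 5437 and 5088 bp and 6985, 8832 and 8214 bp, and RFXAP by 2162, 3387 and 3151 bp and 3706, 4374 and 4499 bp. The NF-Y subunits NFYB (2289 ± 251 to 2915 ± 443 bp) and NFYC (8279 ± 1583 to 13075 ± 2075 bp) and the factors CREB1 (5314 ± 449 to 6458 ± 195 bp) and ATF1 (6263 ± 2193 to 9364 ± 499 bp) were the others (means ± SD of CTRL and VPA, n = 3 each). The exact p was 0.1 for each of these genes, the smallest possible (two-sided permutation test).

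Of 11 class II genes, 9 had an H3K27ac peak in some library, and 4 were higher in VPA. HLA-DRA and HLA-DOB had no peak. HLA-DPA1 and HLA-DPB1, whose windows overlap and share the same peaks, had none in the 3 CTRL libraries and 609, 1031 and 345 bp in the 3 VPA libraries. HLA-DQB1 had 531, 618 and 415 bp in CTRL and 922, 1311 and 1139 bp in VPA, and CD74, the invariant chain, had 314, 437 and 346 bp and 518, 921 and 597 bp. The median log2 ratio of covered length plus 100 bp was 0.98 for the class II list, 0.33 for antigen processing, 0.46 for the promoter factors and 0.38 for the class I-like genes, beside 0.37 for all genes. The class II list counts the shared peaks of HLA-DPA1 and HLA-DPB1 for both genes. Their ratio depends on the added 100 bp, and the other named class II genes had short covered lengths. The size of the class II median is thus uncertain. In CTCF covered length, PSMB9 was higher and CD74 lower in VPA, and no other gene of the 4 lists separated the treatments. Over all gene windows with a CTCF peak 1.26% were higher and 1.86% lower, so single calls in these lists are not read further.

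The genes whose H3K27ac covered length ran most like the sum of the 9 windows over the 6 libraries were ATN1, NAALADL2, ZCCHC3, RNPEPL1 and ARHGAP11B, with Pearson r of 0.998 to 0.999 on log2 covered length plus 100 bp. Of 16022 genes compared, 5396 had r of at least 0.9, and the libraries share depth and local background.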

How the data were processed

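H3K27ac and CTCF ChIP-seq libraries of HEK293T cells were analysed as 12 deposited peak lists. Groups and replicate numbers came from the sample labels. Per the labels and the study's methods, the authors aligned paired-end reads to hg38 with Bowtie2 and called peaks with MACS3 (version 3.0.0a7 in the submitters' processing notes) for every library on its own, with a q-value of 0.05. Use of the input libraries by the caller and treatment of duplicates are not given in the sources used here. The deposited fold enrichment (a ratio), −log10 p-value, −log10 q-value and score of each peak are the authors' values, and the score was not used for any result. DiffBind, which the study ran on reads, could not be applied to peak lists.

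The members and gene lists were chosen with earlier results of these data known. All members were named, as were list genes whose treatments did not overlap, member regions in one treatment only or called, and otherwise the promoter region and the region with the highest mean fold of each gene. Covered length is the number of bases under peaks in a window. Summit pileups and local backgrounds were recovered from the fold, taken as pileup plus 1 over background plus 1, and the Poisson p-value. Recovered pileups were whole within 0.05 in nearly 100% of peaks. Background coverage is the minimum of these local backgrounds in a list. Total reads are unknown. Merged regions with a peak in all 6 libraries were tested with limma 3.58.1 (R 4.3.3, trend, Benjamini-Hochberg over all regions, adjusted p under 0.05), on log2 of the highest fold of each library without a pseudocount. The limma step was tested on simulated data. Same-numbered H3K27ac libraries deviated together from their treatment means (r = 0.87, 0.59 and 0.59 over 18407 regions, numbers 1, 2 and 3). CTRL replicate 2 with VPA replicate 3 (r = 0.607) and CTRL replicate 3 with VPA replicate 2 (r = 0.554) did so as well. The values thus set replicate 1 apart and do not tell numbers 2 and 3 from each other. Replicate numbers were taken as pairs with this limit. This pairing comes from the data, since the labels give no shared batch or day. Non-overlap of pileups, the centred fits with the block and the pileup fits with the block or without single libraries were chosen after seeing the data. RefSeq promoters and the hg38 genome gave the sequences. All peaks ended within the hg38 lengths of the 22 chromosomes. Python 3.11.15, NumPy 2.4.6, SciPy 1.17.1 and matplotlib 3.10.9 were used. One marker list and 1 sequence are not reported here.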

Additional observations from a re-analysis of the deposited data

How the results depend on the processing

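Alternatives were a stricter −log10 q-value of at least 3, equal list lengths, windows of 5 or 50 kb, leaving out single libraries, and, for limma, centring, the summit pileup, no trend, 5 of 6 libraries and the replicate block. The H3K27ac peak number over the 9 windows was 1.67 higher in VPA, fell to −1.67 with equal list lengths and to 0 with 5 kb windows, and was 8.67 with 50 kb windows. H3K27ac covered length was 4.46 kb higher, 13.6 kb with 50 kb windows, 2.86 kb with equal list lengths and 2.30 to 6.57 kb without single libraries (2.30 without CTRL replicate 1, 3.02 without VPA replicate 2 and 6.57 without VPA replicate 1). The CTCF peak number differed by −0.333, by −2.67 with 50 kb windows and by 0.333 with 5 kb windows. Without single libraries it ranged from −1.67 (VPA replicate 3) to 0.833 (VPA replicate 1), and was 0.333 without CTRL replicate 2. CTCF covered length differed by −1.08 kb, and by −2.14 (without CTRL replicate 1) to 0.417 kb (without VPA replicate 1), so neither CTCF total had a stable direction. H3K27ac genes with separated treatments numbered 2, against 1 (HLA-E) with 5 kb windows, 5 with 50 kb windows, 2 to 5 when single libraries were left out and 6 with the replicate block. The HLA-E difference of 516 bp was 246 bp without VPA replicate 2, and that of CIITA, 1685 bp, was 1061 bp without CTRL replicate 1. The 5 came from leaving out VPA replicate 1 (HLA-B, HLA-E, HLA-F, B2M and CIITA), where 76.4% of all gene windows were higher. CTCF genes numbered 0, against 1 with 50 kb windows (HLA-G), 0 to 3 without single libraries and 2 with the replicate block (HLA-B and HLA-E, both lower, beside 16.9% of all windows). The 3 (HLA-B, HLA-E and B2M, lower) came from leaving out CTRL replicate 1, where 22.3% of all windows were lower. Leaving out CTRL replicate 3, VPA replicate 1 or VPA replicate 3 separated 1 gene each (CIITA lower, HLA-F higher, HLA-E lower). Same-numbered CTCF libraries had correlations of 0.340, −0.0451 and 0.477, so the numbers do not pair them. H3K27ac regions in one treatment only numbered 0, 3 with 50 kb windows and 0 to 1 without single libraries (1 without VPA replicate 3). CTCF regions in one treatment only numbered 1, 0 with equal list lengths, 0 with 5 kb windows, 2 with 50 kb windows and 1 to 2 without single libraries (2 without VPA replicate 1). Called H3K27ac regions numbered 0 by fold enrichment, and remained 0 with the replicate block and without single libraries. They numbered 1 with centring and the replicate block (HLA-F), 1 with the pileup, 7 with the pileup and the replicate block, 6 with the centred pileup and the replicate block, and 3 by non-overlap of pileups. No CTCF region of the 9 windows was called under any limma setting. The cause of these changes was not tested. Wider windows hold more bases by construction, and with 50 kb windows 40.1% of all H3K27ac gene windows were higher in VPA. The replicate block changed no other call. Of 198 alternatives for the covered length of single genes, 187 moved it by less than the spread between replicates and 11 by more, and none reversed a separated gene. The 187 include the replicate block, which cannot move a difference of means. They also include changes of sign at genes whose treatments overlapped. In H3K27ac, NLRC5 went from 107 to −171 bp with equal list lengths. Peaks are called against a threshold, so an absent peak limits a signal only to below it.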

Other observations

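Several regions of the 9 windows had peaks in some libraries of both treatments or in part of one. A CTCF region 2387 bp upstream of the HLA-F start site had fold enrichments of 15.5 and 18.7 in CTRL replicates 2 and 3 and 16.1 and 17.2 in VPA replicates 2 and 3, and no peak in replicate 1 of either treatment. A CTCF region downstream of HLA-F had a peak in VPA replicates 2 and 3 alone, with fold enrichments of 3.01 and 3.79. In a B2M intron, 2341 bp from the start site, CTCF had fold enrichments of 6.28 and 9.74 in CTRL replicates 2 and 3 and 7.85 in VPA replicate 3. In the TAP1 window, an H3K27ac region 7078 bp from the PSMB9 start site had a peak in VPA replicates 1 and 2 alone, with summit pileups of 14 and 18 fragments. At DEXI, a CTCF peak 3 bp from the start site was called in CTRL replicate 2 and VPA replicates 1 and 2, with fold enrichments of 3.24, 2.73 and 3.81. With so few libraries at each, none of these patterns was tested.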
